A study of Mus musculus with 6 samples.

Results

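The cytochrome P450 family comprises the haem-containing monooxygenases that oxidise drugs, steroids, bile acids, retinoids and fatty acids. Its members here are the 96 named genes whose symbol is Cyp followed by a digit, with Cyp51 and the pseudogenes left out, among 23472 named genes in the table. Transcripts were measured by RNA sequencing in LSECs, the liver sinusoidal endothelial cells whose pores let plasma reach the hepatocytes. The 3 wild-type libraries (WT) came from C57BL/6 mice aged 7 to 8 weeks that had been given tamoxifen. The 3 RBPjcKO libraries came from C57BL/6 mice of the same age, also given tamoxifen, with a conditional knockout of RBPj in endothelium. The protein made from Rbpj binds DNA and carries Notch signals to target genes. The labels name neither the Cre driver nor the sex, and whether the libraries stem from different mice is not said, so p-values measure only the spread between these libraries.

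In mammals most P450 enzymes sit in the endoplasmic reticulum and receive electrons from the reductase Por, while a smaller group works in mitochondria with ferredoxin. Families 1 to 3 are best known for the clearance of foreign compounds, and in liver they are made chiefly by hepatocytes, many of them in the cells around the central vein. Family 4 and the Cyp2j enzymes act mainly on fatty acids, and family 26 degrades retinoic acid.

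Named genes received 30958761 to 40459702 counts per library, of which P450 genes took 0.200% to 0.444%. Rbpj stood at 41.6, 46.9 and 45.5 CPM (counts scaled to library size by TMM, which sets libraries to a common level) in WT and at 17.0, 19.8 and 17.6 CPM in RBPjcKO, a log2 fold change of -1.30 (SE 0.10) that passed edgeR's quasi-likelihood test (adjusted p = 0.000982). That count covers the whole gene, reads outside the deleted part included. Here and below, 3 values in a row are replicates 1, 2 and 3 of the group, and a gene is called when its edgeR p, adjusted over all 14869 genes tested by the Benjamini-Hochberg method, is under 0.05. The 13 LSEC markers were abundant in all 6 libraries, with summed levels of 29598 to 33686 CPM in WT and 26307 to 31153 CPM in RBPjcKO, and edgeR called 3 lower (Clec4g, Dnase1l3 and Mrc1) and none higher. At an unadjusted p under 0.05, 3 LSEC markers were higher and 4 lower, and DESeq2 called Stab1, Stab2 and Cdh5 higher and Clec4g, Kdr, Mrc1 and Dnase1l3 lower. Markers of other liver cells were present too, and none of the hepatocyte markers was at 0. The 36 hepatocyte markers summed to 3164, 1692 and 2099 CPM in WT and to 2580, 3503 and 6535 CPM in RBPjcKO, ranges that overlapped. Of these markers, 10 were called higher and none lower, and their median log2 fold change was 1.16. Granulocyte markers summed to 440, 83.1 and 177 CPM in WT and to 362, 530 and 851 CPM in RBPjcKO, so that they too were lowest in WT replicate 2 and highest in RBPjcKO replicate 3. Of 7 tested, Mpo and Elane were called higher by edgeR. Of 7 lymphocyte markers, Cd79a and Ms4a1 were called higher and none lower, but only 3 lay above 0 and 4 below. Their median log2 fold change was -0.78, and the list summed to 25.8 to 29.2 CPM in WT and 11.3 to 34.4 CPM in RBPjcKO. The part of these cells in the P450 values was not tested. In bulk RNA of this kind, a difference in the number of cells of a type cannot be told apart from a difference in RNA per cell.

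P450 transcripts were unevenly spread. Per length, Cyp4b1, an enzyme that oxidises fatty acids and some foreign compounds, was the most abundant member, with 462 ± 24.3 RPKM in WT and 345 ± 33.0 RPKM in RBPjcKO (mean ± SD, n = 3 each; RPKM is the authors' read count scaled to gene length and library total). Cyp26b1, a retinoic acid hydroxylase, came next with a mean of 178 RPKM over the 6 libraries, ahead of the ethanol-oxidising Cyp2e1 with 79.7 RPKM and Cyp2d22 with 39.7 RPKM. The order of the last pair differed by group, with 30.5 ± 17.9 RPKM for Cyp2e1 and 51.2 ± 7.76 RPKM for Cyp2d22 in WT, and 129 ± 90.0 and 28.2 ± 2.59 RPKM in RBPjcKO. Counts of Cyp26b1 and Cyp4b1 together made up 85.9%, 76.3% and 73.6% of all P450 counts in WT and 76.9%, 63.3% and 46.8% in RBPjcKO. The summed level of all 96 members was 4631, 2349 and 2169 CPM in WT and 2610, 2010 and 2323 CPM in RBPjcKO. WT replicate 1 stood above the rest, and Cyp26b1 alone made up 2890 CPM of it. Without those 2 genes the sums were 654, 556 and 572 CPM in WT and 602, 738 and 1237 CPM in RBPjcKO, with RBPjcKO replicate 3 the highest.

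**Figure D1:**
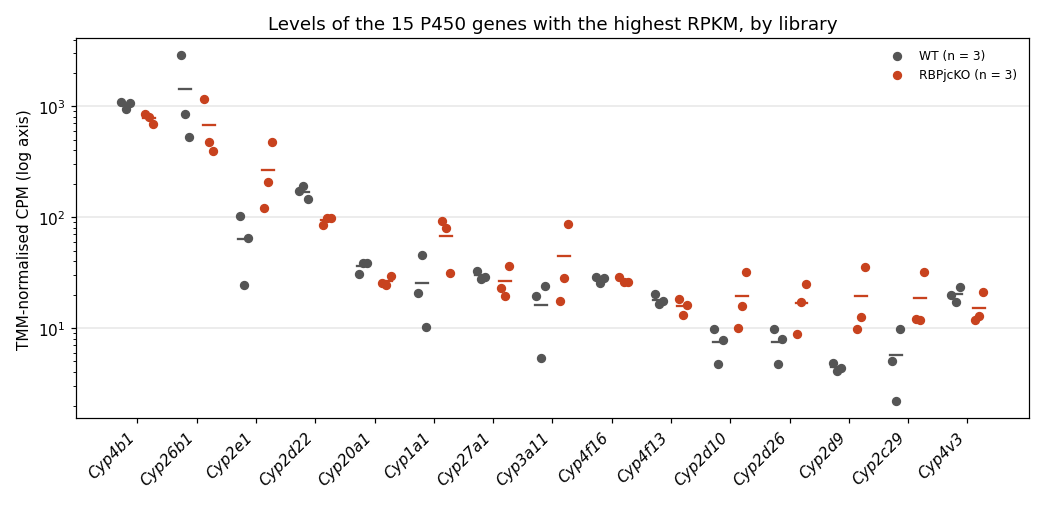
TMM-normalised CPM (log axis) of the 15 P450 genes with the highest mean RPKM, ordered by RPKM; points are libraries, WT in grey and RBPjcKO in red, and short lines are group means (n = 3 each). Cyp26b1 spreads from 528 to 2890 CPM within WT, while Cyp4b1 lies between 949 and 1086 CPM in WT and between 688 and 856 CPM in RBPjcKO.

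Many members were hardly detected. No count fell in any library on 11 genes, namely Cyp2b19, Cyp2c66, Cyp2d34, Cyp2j11, Cyp2j12, Cyp3a16, Cyp3a41a, Cyp3a41b, Cyp3a57, Cyp11b2 and the aromatase gene Cyp19a1. A count of 0 allows a level of up to 0.0747 to 0.0949 CPM, depending on the library (3 counts, counting error only). A further 27 genes had counts but were too low to test, with at most 36 in a library. That left 58 members in the test, and none of them cleared the filter in the libraries of 1 group alone.

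Of the 58 tested members, 10 were called (17.2%), against 16.7% of all genes tested. Higher in RBPjcKO were 6 (10.3%, against 9.0% of all genes), namely Cyp2c68, Cyp2d9, Cyp2d13, Cyp2d40, Cyp3a13 and Cyp26a1. Lower were 4 (6.90%, against 7.74%), namely Cyp1b1, Cyp2d22, Cyp2j9 and Cyp2s1. The shares of called members thus lay near those of all genes. The median log2 fold change was 0.57 over the 58 members and -0.00 over all genes, with 36 members above 0 and 22 below. The lowest RBPjcKO library exceeded the highest WT library for 18 members (20.7% of all genes did so, 31.0% of members), and the reverse held for 7 (19.6% of all genes, 12.1% of members). A further 15 members had adjusted p between 0.05 and 0.1, 11 with log2 fold changes above 0 and 4 below, and 31 of the 58 had an unadjusted p under 0.05. The share of all genes under that unadjusted p was not counted. Neither this count nor the others at an unadjusted p can therefore be set against all genes.

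The number called varied with the method. DESeq2, whose adjusted p covered 61 members, called 19 higher and 7 lower, against 12.7% and 11.2% of all genes. Without a filter on low counts edgeR called 11 higher and 3 lower of 85 members, against 6.90% and 5.80%. Leaving out 1 library gave 2 to 12 members higher and 1 to 4 lower. Without RBPjcKO replicate 1, 12 of 61 members were higher and 1 lower, beside 985 and 676 of all genes. Without WT replicate 2, 2 of 61 members were higher and 1 lower, beside 467 and 329 of all genes. The number of members lower was 2 without WT replicate 3 and 1 without RBPjcKO replicate 2, beside 680 and 587 of all genes. The calls over all genes thus varied too. Cyp2d22, Cyp2c68 and Cyp26a1 kept their calls whichever library was omitted.

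**Figure D2:**
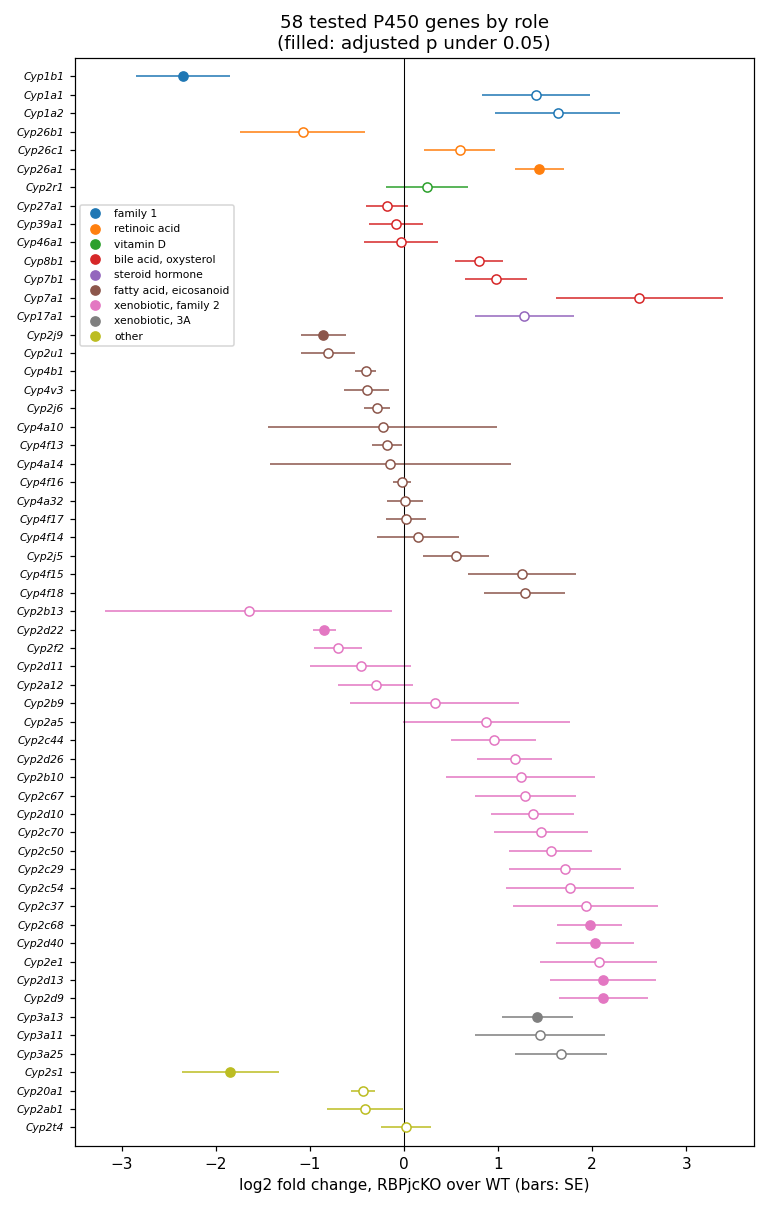
log2 fold change of RBPjcKO over WT for the 58 tested P450 genes (bars are SE), grouped and coloured by role; filled points have edgeR adjusted p under 0.05. The filled points are 6 on the right and 4 on the left. The genes of the family 2 drug and 3A groups (pink and grey) lie mostly to the right of 0. Family 2 genes of other roles, such as Cyp2j9 and Cyp2s1, both called lower, have the colours of those roles.

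**Figure D3:**
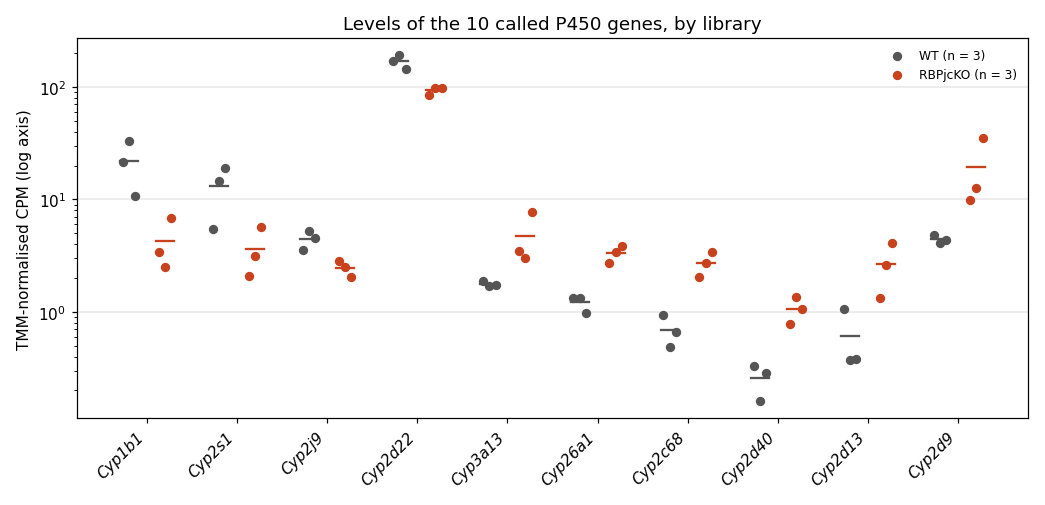
TMM-normalised CPM (log axis) of the 10 called P450 genes in each library, WT in grey and RBPjcKO in red, with group means as short lines (n = 3 each). The groups do not overlap for 9 of the 10 genes; for Cyp2s1 the highest RBPjcKO library (5.65 CPM) exceeds the lowest WT library (5.46 CPM).

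Family 1 enzymes activate polycyclic aromatic hydrocarbons, and their genes are classical targets of the aryl hydrocarbon receptor AHR. Cyp1b1 fell, while Cyp1a1 and Cyp1a2 had higher means in RBPjcKO without passing the test. Cyp1b1 (chr17:79706953-79715041, GRCm38), which also oxidises oestradiol and retinoids, had 21.4, 33.3 and 10.7 CPM in WT and 3.42, 2.51 and 6.91 CPM in RBPjcKO. Every RBPjcKO library lay under every WT library. The fall was 5.10-fold (log2 fold change -2.35, SE 0.50, edgeR adjusted p = 0.0213). The call was lost without WT replicate 1 or 2 or without RBPjcKO replicate 1 or 2 (edgeR adjusted p = 0.0521, 0.0681, 0.0586 and 0.0598). Cyp1a1 had 20.9, 45.9 and 10.1 CPM in WT and 92.8, 79.3 and 31.2 CPM in RBPjcKO. Its groups overlapped, since RBPjcKO replicate 3 lay under WT replicate 2 (log2 fold change 1.40, SE 0.57, edgeR adjusted p = 0.130). The ratio of Cyp1a1 to Cyp1b1 was 0.977, 1.38 and 0.947 in WT and 27.1, 31.5 and 4.52 in RBPjcKO, a description chosen after the values were seen. Cyp1a2, the caffeine-oxidising enzyme of hepatocytes, ranged from 1.63 to 6.58 CPM in WT and from 5.23 to 26.5 CPM in RBPjcKO.

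Of 6 other AHR pathway genes tested, 1 rose and 1 fell. Tiparp, an AHR target that feeds back on the receptor, had 40.0, 52.0 and 71.6 CPM in WT and 104, 78.1 and 134 CPM in RBPjcKO (log2 fold change 0.95, SE 0.25, edgeR adjusted p = 0.0424). Nqo1, a quinone reductase, had 8.73, 12.0 and 9.02 CPM in WT and 4.40, 6.95 and 4.31 CPM in RBPjcKO (log2 fold change -0.92, SE 0.24, edgeR adjusted p = 0.0400). The call of Tiparp was lost without WT replicate 1 or 2 or RBPjcKO replicate 1 or 3 (edgeR adjusted p = 0.0966, 0.128, 0.0825 and 0.101), and that of Nqo1 in every fit without 1 library but the fit without RBPjcKO replicate 2 (0.0629 to 0.132).

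The stretches of 250 bases before a transcript start of Cyp1b1 and of Cyp1a1 (RefSeq, GRCm38, read 5′ to 3′ along the gene) are shown because the pair lay on opposite sides of 0. Capitals mark GTGGGAA, the letters of the RBPJ recognition site, in Cyp1b1, where the match is on the opposite strand and reads TTCCCAC, and GCGTG, the core that AHR recognises, in Cyp1a1.
Cyp1b1, chr17:79715062-79715311, minus strand: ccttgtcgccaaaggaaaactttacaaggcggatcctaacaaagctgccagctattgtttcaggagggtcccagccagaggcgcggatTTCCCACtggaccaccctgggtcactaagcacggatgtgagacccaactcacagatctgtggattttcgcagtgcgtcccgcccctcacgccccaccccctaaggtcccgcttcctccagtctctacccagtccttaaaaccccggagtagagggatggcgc
Cyp1a1, chr9:57697363-57697612, plus strand: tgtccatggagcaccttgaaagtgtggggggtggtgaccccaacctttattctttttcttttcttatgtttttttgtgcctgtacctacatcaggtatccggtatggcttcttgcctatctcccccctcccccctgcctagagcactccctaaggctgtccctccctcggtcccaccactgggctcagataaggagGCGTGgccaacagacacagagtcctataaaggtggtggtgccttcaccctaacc
The Cyp1a1 start used here, at 57697613, lies 9685 bases inside the RefSeq gene, which begins at 57687928; the Cyp1b1 stretch lies just outside its gene. The matches begin 162 and 54 bases before these starts. GTGGGAA stands on either strand of 5.42% of 32851 mouse promoters of this length and of 7 of the 83 promoters of P450 genes (8.43%), and GCGTG of 28.2% and of 16 (19.3%). The Cyp1b1 stretch also holds GCGTG. A match is a description of letters and does not show that a factor binds there.

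The 3 family 26 genes encode the enzymes that hydroxylate and so inactivate retinoic acid, and Cyp26a1 is itself a textbook target of the retinoic acid receptors. Cyp26a1 rose from a low level, while the far more abundant Cyp26b1 did not pass the test. Cyp26a1 (chr19:37697808-37701536) had 1.34, 1.34 and 0.981 CPM in WT and 2.69, 3.44 and 3.82 CPM in RBPjcKO, with no overlap. The rise was 2.71-fold (log2 fold change 1.44, SE 0.26, edgeR adjusted p = 0.0130), and adjusted p was 0.0230 to 0.0490 in the fits without 1 library. Cyp26b1 had 2890, 844 and 528 CPM in WT and 1152, 475 and 398 CPM in RBPjcKO. The highest library of each group was 5.47 and 2.90 times its lowest, and the groups overlapped (log2 fold change -1.07, SE 0.66, edgeR adjusted p = 0.289). Without WT replicate 1 the log2 fold change was -0.02, and without RBPjcKO replicate 1 it was -1.71. Cyp26c1 ranged from 0.253 to 0.375 CPM in WT and from 0.411 to 0.598 CPM in RBPjcKO (edgeR adjusted p = 0.303). The level of Cyp26a1 as a percent of that of Cyp26b1 was 0.0463, 0.159 and 0.186 in WT and 0.234, 0.723 and 0.962 in RBPjcKO, counts not corrected for length.

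The 250 bases before a transcript start of Cyp26a1 (RefSeq, GRCm38, 5′ to 3′) are shown because this gene was called higher in each fit without 1 library and carries, in capitals, the letters of a retinoic acid response element.
Cyp26a1, chr19:37697558-37697807, plus strand: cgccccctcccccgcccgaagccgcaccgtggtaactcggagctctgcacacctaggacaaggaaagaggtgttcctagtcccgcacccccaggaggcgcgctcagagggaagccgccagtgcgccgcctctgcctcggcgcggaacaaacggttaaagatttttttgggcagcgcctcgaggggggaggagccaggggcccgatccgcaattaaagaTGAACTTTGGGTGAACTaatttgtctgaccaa
The match, a direct repeat of AGTTCA with a spacer of any 5 bases, is on the opposite strand and begins 32 bases before the start used, 37697808, which is the start in the deposited table. The RefSeq gene begins 70 bases earlier, so the match lies inside it. These 17 letters occur on either strand in 7 of 32851 promoters of this length (0.0213%) and in no other P450 promoter. The same stretch overlaps a match to CAAAGTNCA, the HNF4A motif described with the bile acid genes.

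Among 12 tested genes of retinoid supply and response, 1 was called higher and 2 lower. Rara, a retinoic acid receptor, rose from 72.7, 66.3 and 64.4 CPM in WT to 95.2, 95.0 and 88.2 CPM in RBPjcKO (log2 fold change 0.45, edgeR adjusted p = 0.0137). Dhrs3, a retinal reductase, fell from 381, 330 and 322 to 274, 245 and 207 CPM (log2 fold change -0.51, edgeR adjusted p = 0.0338). Neither Rara nor Dhrs3 overlapped between the groups. Left-out libraries ended the call of Rara without WT replicate 2 or 3 (edgeR adjusted p = 0.0710 and 0.0507) and that of Dhrs3 in every fit but the one without RBPjcKO replicate 1 (0.0662 to 0.0921). Beside these values, 3 of 10 tested stellate cell markers were called lower (Reln, Hand2 and Dcn) and none higher. Of the 10, 7 lay below 0 and 3 above, and they summed to 1816 to 2022 CPM in WT and 1131 to 1712 CPM in RBPjcKO. The part of stellate cells in the retinoid genes was not tested.

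Of the vitamin D genes, only Cyp2r1, the hepatic 25-hydroxylase, could be tested, at 0.669 to 1.83 CPM in WT and 0.996 to 1.76 CPM in RBPjcKO (edgeR adjusted p = 0.726). The activating enzyme Cyp27b1 had 0, 2 and 2 counts in WT and 4, 3 and 15 in RBPjcKO, and the degrading enzyme Cyp24a1 had at most 2 counts in a library. Cyp24a1 overlaps Pfdn4 on the other strand, so its few reads cannot be assigned with certainty. Vdr, the vitamin D receptor, was the 1 nuclear receptor of 10 tested that edgeR called (0.465 ± 0.122 CPM in WT and 0.153 ± 0.0252 CPM in RBPjcKO, log2 fold change -1.58, adjusted p = 0.0452), while DESeq2 called none of the 10.

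The 6 genes of bile acid and oxysterol metabolism were all tested, and edgeR called none, while DESeq2 called Cyp7a1, Cyp7b1 and Cyp8b1 higher. At an unadjusted p under 0.05, 3 were higher and 0 lower. Cyp7a1, the rate-limiting enzyme of bile acid synthesis, had 0.191, 0.321 and 1.49 CPM in WT and 1.27, 2.46 and 7.39 CPM in RBPjcKO. WT replicate 3 exceeded RBPjcKO replicate 1, and the log2 fold change of 2.50 carried an SE of 0.89 (edgeR adjusted p = 0.0926). Cyp8b1, the sterol 12-hydroxylase that sets the proportion of cholic acid, had 6.96, 5.11 and 6.49 CPM in WT and 11.6, 7.12 and 13.5 CPM in RBPjcKO, without overlap (log2 fold change 0.80, edgeR adjusted p = 0.0715). Cyp7b1, the oxysterol 7-hydroxylase, ranged from 2.97 to 4.49 CPM in WT and from 5.49 to 11.7 CPM in RBPjcKO (log2 fold change 0.98, edgeR adjusted p = 0.0814). Cyp27a1, the mitochondrial sterol 27-hydroxylase, which is widely made outside hepatocytes, was the most abundant of the group, with 32.8, 28.0 and 28.6 CPM in WT and 23.2, 19.4 and 36.3 CPM in RBPjcKO (log2 fold change -0.18, edgeR adjusted p = 0.602). Cyp39a1 and the cholesterol 24-hydroxylase gene Cyp46a1 had log2 fold changes of -0.08 and -0.03. Cyp7a1, Cyp7b1 and Cyp8b1 thus lay above 0 and the other 3 below it.

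Among 10 other genes of bile acid synthesis and transport, 3 were called higher and none lower. Akr1c6 rose from 3.87, 3.02 and 4.11 to 5.67, 9.66 and 22.2 CPM (log2 fold change 1.77, edgeR adjusted p = 0.0420). Baat, which conjugates bile acids, rose from 2.24, 1.47 and 2.37 to 3.52, 4.36 and 6.88 CPM (log2 fold change 1.28, edgeR adjusted p = 0.0364). Hsd3b7, a steroid dehydrogenase of the pathway, rose from 81.1, 77.4 and 70.7 to 97.3, 91.6 and 99.4 CPM (log2 fold change 0.33, edgeR adjusted p = 0.0377). Each of the 3 kept its call in 1 of the 6 fits that left out a library, namely without RBPjcKO replicate 1 for Akr1c6 and Baat and without WT replicate 1 for Hsd3b7; in the other fits edgeR adjusted p ran from 0.0594 to 0.133.

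Cyp8b1 and Cyp2c68 illustrate a run of letters that was frequent among P450 promoters. Capitals in the 250 bases before each start (RefSeq, GRCm38, 5′ to 3′) mark CAAAGTNCA, the motif of the hepatocyte factor HNF4A, here in its forward direction.
Cyp8b1, chr9:121916306-121916555, minus strand: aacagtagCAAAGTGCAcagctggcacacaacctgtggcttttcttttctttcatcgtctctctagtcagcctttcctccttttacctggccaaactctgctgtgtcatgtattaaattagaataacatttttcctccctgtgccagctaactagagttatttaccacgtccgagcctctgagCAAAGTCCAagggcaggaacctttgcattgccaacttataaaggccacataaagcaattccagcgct
Cyp2c68, chr19:39741102-39741351, minus strand: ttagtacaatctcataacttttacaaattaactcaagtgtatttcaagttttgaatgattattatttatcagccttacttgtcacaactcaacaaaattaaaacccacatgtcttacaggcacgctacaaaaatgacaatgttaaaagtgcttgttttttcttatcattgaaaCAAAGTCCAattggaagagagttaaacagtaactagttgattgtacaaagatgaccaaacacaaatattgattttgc
Cyp8b1 holds 2 matches, which begin 242 and 67 bases before the start, and Cyp2c68 holds 1, at 77 bases. The motif stands on either strand of 1.19% of all 32851 promoters and of 16 of 83 P450 promoters (19.3%), which belong to the 3A genes Cyp3a11, Cyp3a16, Cyp3a41a, Cyp3a41b and Cyp3a44, to 8 Cyp2c genes, to Cyp2d26, Cyp8b1 and Cyp26a1. TATAAA stood in 36.1% of P450 promoters and in 12.4% of all. Near-identical neighbours share promoter letters, so these promoters are not independent.

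Of the 6 steroid hormone genes, Cyp17a1 alone could be tested, at 0.401 to 0.664 CPM in WT and 0.622 to 2.18 CPM in RBPjcKO (edgeR adjusted p = 0.133). Cyp11b2 and Cyp19a1 had no counts, and Cyp11a1, Cyp11b1 and Cyp21a1 had at most 6 in a library.

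Fatty acid and eicosanoid enzymes numbered 25, of which 15 were tested, 1 was called lower by edgeR and none higher; at an unadjusted p under 0.05, 1 was higher and 3 lower, and DESeq2 called Cyp4f18 higher and Cyp2j9 and Cyp4b1 lower. The group includes Cyp4b1, and the group's summed level was 1237, 1064 and 1196 CPM in WT and 969, 916 and 838 CPM in RBPjcKO, without overlap. Most of each sum was Cyp4b1 itself, so the sum does not show a fall of the other members. Of the 15 tested members, 6 had log2 fold changes above 0 and the rest below. Cyp4b1 had 1086, 949 and 1068 CPM in WT and 856, 797 and 688 CPM in RBPjcKO. Although every RBPjcKO library lay under every WT library, its log2 fold change of -0.41 (SE 0.12) had an edgeR adjusted p of 0.0507 and so missed the threshold. DESeq2 called Cyp4b1 (adjusted p = 0.0134), as did edgeR with upper-quartile scaling (adjusted p = 0.0403). It was called in 4 of the 9 alternatives that kept every library. None of the 6 fits without 1 library called it (edgeR adjusted p = 0.0675 to 0.134). Cyp2j9, an arachidonic acid hydroxylase, was the called gene, with 3.57, 5.22 and 4.56 CPM in WT and 2.85, 2.49 and 2.03 CPM in RBPjcKO. That is a 1.81-fold fall without overlap (log2 fold change -0.86, SE 0.24, edgeR adjusted p = 0.0493), and the call held in 1 of the 6 fits without a library, that without WT replicate 1. In the other 5 fits edgeR adjusted p ran from 0.0670 to 0.159. Cyp2u1, which oxidises long-chain fatty acids, ranged from 1.12 to 1.28 CPM in WT and from 0.570 to 0.770 CPM in RBPjcKO (edgeR adjusted p = 0.0923).

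Other abundant members of the group were not called. Cyp4f16 had 28.7, 25.7 and 28.0 CPM in WT and 28.9, 26.1 and 26.2 CPM in RBPjcKO, with a log2 fold change of -0.02 (SE 0.10). Cyp4f13 had 20.2, 16.3 and 17.4 CPM in WT and 18.4, 13.2 and 16.1 CPM in RBPjcKO, and Cyp4v3, an enzyme whose human counterpart is mutated in a crystalline corneoretinal dystrophy, had 19.8, 17.2 and 23.4 against 11.8, 12.9 and 21.1 CPM. Neither was called (edgeR adjusted p = 0.449 and 0.272), but Cyp4v3 was called lower without RBPjcKO replicate 3 (edgeR adjusted p = 0.0414). The Cyp4a fatty acid hydroxylases are well-known targets of PPARA, and Cyp4a10 and Cyp4a14 were the most variable of the tested members of this group. Cyp4a14 had 17.8, 0.214 and 2.06 CPM in WT and 0.829, 9.26 and 8.06 CPM in RBPjcKO, and Cyp4a10 had 13.3, 0.375 and 1.74 against 0.544, 8.54 and 4.13 CPM. Both were high in WT replicate 1 and RBPjcKO replicates 2 and 3 and low in WT replicate 2 and RBPjcKO replicate 1, an order that the groups do not follow. Their neighbour Cyp4a32 stayed between 4.65 and 6.53 CPM in all 6 libraries. P450-fold enzymes of eicosanoid synthesis with other names, the prostacyclin synthase gene Ptgis and the thromboxane synthase gene Tbxas1, were not called either (edgeR adjusted p = 0.449 and 0.225).

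Family 2 enzymes of drug and pheromone metabolism formed the largest group, with 36 members, 22 of them tested, 4 called higher and 1 lower. Most of the 36 lie in gene clusters on chromosomes 7, 15 and 19 whose members are near-identical in places. Reads may be divided wrongly between such neighbours, and their values are uncertain to that extent. Cyp2e1 (chr7:140763832-140774977) lies outside these clusters. Summed over the group, levels were 343, 251 and 281 CPM in WT and 283, 416 and 801 CPM in RBPjcKO. The abundant Cyp2d22 fell while low members of the same cluster rose.

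Cyp2d22 (chr15:82370527-82380260), the mouse 2D gene often compared with human CYP2D6, had 171, 192 and 145 CPM in WT and 85.6, 98.3 and 98.7 CPM in RBPjcKO. All WT libraries lay above all RBPjcKO libraries, a 1.80-fold difference (log2 fold change -0.85, SE 0.12, edgeR adjusted p = 0.00609), and the call held in each fit without 1 library (edgeR adjusted p = 0.00848 to 0.0254). Its neighbour Cyp2d9 (chr15:82452377-82456827), a male-biased steroid hydroxylase in mouse liver, had 4.86, 4.12 and 4.33 CPM in WT and 9.82, 12.5 and 35.6 CPM in RBPjcKO. The rise was 4.35-fold without overlap (log2 fold change 2.12, SE 0.47, edgeR adjusted p = 0.0254). Without RBPjcKO replicate 3 it was 1.33 on the log2 scale and still called, whereas leaving out WT replicate 1, 2 or 3 ended the call (edgeR adjusted p = 0.0671, 0.0917 and 0.0701). Cyp2d13 had 1.06, 0.375 and 0.380 CPM in WT and 1.32, 2.59 and 4.06 CPM in RBPjcKO (log2 fold change 2.12, SE 0.56, edgeR adjusted p = 0.0423). Cyp2d40 had 0.327, 0.161 and 0.285 CPM in WT and 0.777, 1.34 and 1.05 CPM in RBPjcKO (log2 fold change 2.03, SE 0.41, edgeR adjusted p = 0.0186). Neither overlapped between the groups, and both rest on low counts. Calls were lost without WT replicate 2 or 3 or RBPjcKO replicate 2 for both genes (edgeR adjusted p = 0.133, 0.111 and 0.0899 for Cyp2d13, and 0.0722, 0.0532 and 0.0605 for Cyp2d40), and also without RBPjcKO replicate 3 for Cyp2d13 (0.103). Cyp2d10 and Cyp2d26 ranged from 4.74 to 9.88 CPM in WT and from 8.81 to 32.1 CPM in RBPjcKO, with log2 fold changes of 1.37 and 1.18 (edgeR adjusted p = 0.0726 and 0.0832), and both were called higher without RBPjcKO replicate 1 (edgeR adjusted p = 0.0393 and 0.0350). Of the 9 Cyp2d genes, 7 were tested, of which 5 lay above 0 and Cyp2d22 and Cyp2d11 below.

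The Cyp2c enzymes, which epoxidise arachidonic acid and hydroxylate drugs, lay on the same side of 0. Of 15 members on chromosome 19, 8 were tested and all 8 had log2 fold changes above 0, from 0.95 to 1.97. Of these 8, 1 was called and 6 were higher without overlap between the groups. Among all genes, 20.7% were higher without overlap, and the share called higher stands with the counts of the 58 tested members. Cyp2c68 (chr19:39688836-39741101) was the called gene, with 0.928, 0.482 and 0.664 CPM in WT and 2.05, 2.71 and 3.41 CPM in RBPjcKO. The rise was 3.93-fold (log2 fold change 1.97, SE 0.35, edgeR adjusted p = 0.0120), and the call held without any 1 library (edgeR adjusted p = 0.0205 to 0.0484). Cyp2c29, a major hepatic 2C enzyme, had 5.08, 2.19 and 9.87 CPM in WT and 12.0, 11.8 and 32.2 CPM in RBPjcKO (edgeR adjusted p = 0.0861). Cyp2c38 and Cyp2c40 were too low for the filter, with 1, 0 and 3 counts and 1, 0 and 0 counts in WT, and 10, 25 and 36 and 6, 26 and 25 in RBPjcKO. Both were called higher where no filter was applied. The Cyp2c44 entry is named Cyp2c23 in RefSeq.

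Cyp2e1, the ethanol- and acetaminophen-oxidising enzyme of pericentral hepatocytes, had the highest mean RPKM of the family 2 genes over the 6 libraries, though Cyp2d22 was higher in WT. It had 103, 24.3 and 64.7 CPM in WT and 121, 209 and 476 CPM in RBPjcKO. WT replicate 2 was the lowest and RBPjcKO replicate 3 the highest, and the groups did not overlap (log2 fold change 2.07, SE 0.62, edgeR adjusted p = 0.0594). DESeq2 called it (adjusted p = 0.0345), as did edgeR without a filter (0.0484) or without RBPjcKO replicate 1 (0.0474). Without RBPjcKO replicate 3 the log2 fold change was 1.37 and edgeR adjusted p was 0.137, and without WT replicate 2 they were 1.67 and 0.131. Cyp2f2, a naphthalene-oxidising enzyme of periportal hepatocytes, went the other way, with 4.77, 6.10 and 7.72 CPM in WT and 3.78, 2.96 and 4.67 CPM in RBPjcKO, and was not called by edgeR (log2 fold change -0.70, adjusted p = 0.0982), though DESeq2 did call it (adjusted p = 0.0484). The 2 Cyp2a and 3 Cyp2b genes tested varied within groups, none was called by edgeR or DESeq2, and none had an unadjusted p under 0.05. Cyp2a5, the coumarin hydroxylase, had 7.37, 0.562 and 8.32 CPM in WT and 3.42, 7.57 and 18.8 CPM in RBPjcKO, and Cyp2b10, the classical target of the receptor CAR, stayed at or under 2.46 CPM.

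A set of 9 members known from hepatocytes around the central vein (Cyp1a2, Cyp2a5, Cyp2c29, Cyp2c37, Cyp2c50, Cyp2c54, Cyp2e1, Cyp3a11 and Cyp7a1) had log2 fold changes from 0.88 to 2.50, median 1.71, and none was called by edgeR. Of them 7 had an unadjusted p under 0.05 with a higher RBPjcKO level, and DESeq2 called 4 higher (Cyp2c50, Cyp2c54, Cyp2e1 and Cyp7a1), against 12.7% of all genes. Without overlap between the groups, 5 were higher, against 20.7% of all genes. Summed, they stood at 150, 37.8 and 123 CPM in WT and at 172, 289 and 687 CPM in RBPjcKO. Relative to Cyp2f2 the sum was 31.5, 6.20 and 16.0 in WT and 45.4, 97.5 and 147 in RBPjcKO. The ratio to Cyp2f2 was higher in every RBPjcKO library than in any WT library for 8 of the 9 genes, Cyp2a5 being the exception; all 8 share the same denominator, and the set was chosen with these values known. Other markers of the 2 zones gave these values: of 8 pericentral markers tested, Gulo and Rgn were called higher and none lower by edgeR (DESeq2 also called Glul and Axin2 lower), and of 8 periportal markers none was called by edgeR or DESeq2 or had an unadjusted p under 0.05, with a median log2 fold change of 0.20. Summed levels of the pericentral marker list, which includes genes that other liver cells also use, were 1159 to 1627 CPM in WT and 930 to 1074 CPM in RBPjcKO. Of 4 P450 genes known as male-biased in mouse liver, Cyp2d9 and Cyp7b1 were tested and both lay above 0. Of 4 other liver genes known as male-biased, 3 were tested and neither edgeR nor DESeq2 called any (1 was higher at an unadjusted p under 0.05), with sums of 1.15 to 4.36 CPM in WT and 1.62 to 46.7 CPM in RBPjcKO. Of 10 P450 genes known as female-biased, 3 were tested and edgeR called none (1 was higher at an unadjusted p under 0.05, and DESeq2 called Cyp2c40 higher), with summed levels of 0.535 to 5.28 CPM in WT and 1.94 to 6.16 CPM in RBPjcKO. Y-linked genes were present in all 6 libraries, Ddx3y at 20.1 to 39.1 CPM.

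The Cyp3a enzymes oxidise a broad range of drugs and steroids. Of 9 genes, 3 were tested and all lay above 0, with 1 called. Cyp3a13 (chr5:137892933-137921619) had 1.88, 1.69 and 1.74 CPM in WT and 3.50, 3.04 and 7.68 CPM in RBPjcKO, a 2.67-fold rise without overlap (log2 fold change 1.42, SE 0.38, edgeR adjusted p = 0.0426). Without RBPjcKO replicate 3 the log2 fold change was 0.89 and the call was lost (edgeR adjusted p = 0.0708), and it was also lost without RBPjcKO replicate 1 (0.0514) and without WT replicate 1, 2 or 3 (0.0916, 0.127 and 0.102). Cyp3a11, the main hepatic 3A enzyme, had 19.5, 5.40 and 23.9 CPM in WT and 17.4, 28.5 and 86.9 CPM in RBPjcKO and overlapped between the groups (log2 fold change 1.45, edgeR adjusted p = 0.181). Its log2 fold change was 0.50 without RBPjcKO replicate 3 and 1.01 without WT replicate 2. Cyp3a25 ranged from 1.07 to 1.46 CPM in WT and from 1.89 to 7.34 CPM in RBPjcKO (edgeR adjusted p = 0.0562). Cyp3a41a and Cyp3a41b overlap on the same strand, and both had no counts.

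Among the 5 remaining members, Cyp2s1 fell. Cyp2s1 (chr7:25802476-25816530), an enzyme of epithelia outside the liver that dioxin can induce, had 5.46, 14.5 and 19.2 CPM in WT and 2.10, 3.14 and 5.65 CPM in RBPjcKO. The lowest WT and highest RBPjcKO library overlapped slightly (3.59-fold, log2 fold change -1.84, SE 0.51, edgeR adjusted p = 0.0486). The call was lost without WT replicate 2 or 3 or RBPjcKO replicate 1 or 2 (edgeR adjusted p = 0.125, 0.119, 0.103 and 0.125). Cyp20a1, an orphan P450 with no established substrate, had 31.0, 38.7 and 38.2 CPM in WT and 25.7, 24.6 and 29.7 CPM in RBPjcKO without overlap, and edgeR adjusted p was 0.0543 (log2 fold change -0.43). It was called lower by DESeq2 (adjusted p = 0.0232) and by edgeR without WT replicate 1 (0.0361). Of the 8 cholangiocyte markers, 4 were called lower, Spp1, Epcam and Sox9 among them. In all, 7 lay below 0 and 1 above, at a log2 fold change of 1.26 and higher without overlap. Their list summed to 227, 397 and 198 CPM in WT and 88.6, 96.3 and 132 CPM in RBPjcKO. None of these markers was without counts, and their part in the fall of Cyp2s1 or Cyp1b1 was not tested. Kupffer cell markers summed to 1366 to 2897 CPM in WT and 667 to 2055 CPM in RBPjcKO, and edgeR called none of 11 tested, with 3 lower at an unadjusted p under 0.05 and 2 called lower by DESeq2.

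**Figure D4:**
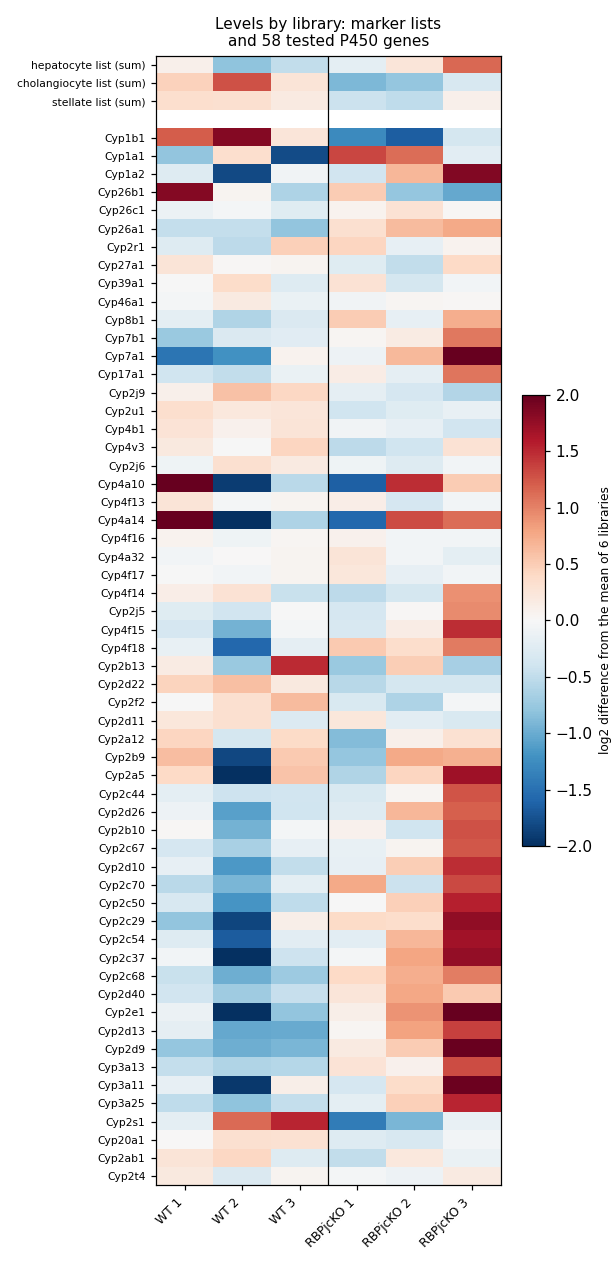
log2 level of each tested P450 gene and of 3 summed marker lists in each library, relative to the mean of the 6 libraries (red above, blue below; colours stop at 2 in either direction), with WT left and RBPjcKO right of the line. Family 2 genes of other roles, such as Cyp2j9 and Cyp2s1, are not among the 25 family 2 drug and 3A genes tested. Of these 25, 18 are lowest in WT replicate 2 and highest in RBPjcKO replicate 3. The sum of the hepatocyte list has the same order (1692 and 6535 CPM). The share of all genes with that order was not counted.

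No redox partner of the P450 enzymes passed the test. Of 10 redox partners and haem enzymes tested, including Por and Cyb5r3, none was called by edgeR, 3 were higher at an unadjusted p under 0.05, and DESeq2 called 1 higher (Cyb5). Their log2 fold changes ran from -0.10 to 0.37. Cyb5r3, the cytochrome b5 reductase, had 288, 324 and 337 CPM in WT and 338, 365 and 329 CPM in RBPjcKO, and Hmox1, the haem-degrading enzyme, had 170, 143 and 169 against 205, 126 and 183 CPM. No epoxide hydrolase of 3 tested was called by edgeR or DESeq2, and none had an unadjusted p under 0.05. Of 13 conjugating and other non-P450 enzymes that act on foreign compounds, edgeR called none. At an unadjusted p under 0.05, 5 were higher and 1 lower, and DESeq2 called the same numbers. The median log2 fold change of the 13 was 1.01. Ephx1, the microsomal epoxide hydrolase, had 113, 95.7 and 111 CPM in WT and 47.0, 51.3 and 104 CPM in RBPjcKO (log2 fold change -0.65, edgeR adjusted p = 0.155). It was called lower without RBPjcKO replicate 3 (log2 fold change -1.11, edgeR adjusted p = 0.00423) and with the hepatocyte covariate described below (-1.53, 0.0400). Among these genes the abundant, broadly used ones such as Fmo1 (180, 153 and 146 against 196, 133 and 191 CPM) overlapped between the groups.

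Of the 58 tested members, 24 were lowest in WT replicate 2 and highest in RBPjcKO replicate 3, the libraries with the lowest and highest hepatocyte sums. The share of all genes with that order was not counted, so the 24 cannot be set against it. The comparison was repeated with the hepatocyte level taken into account, in 2 ways. With the mean log2 level of the 36 markers as a covariate, edgeR called no member higher (0.740% of all genes were) and none lower (0.646% of all genes), and the median log2 fold change of the members was -0.14. The smallest adjusted p of a member was 0.0960, that of Cyp2d22, whose log2 fold change was -0.90. At an unadjusted p under 0.05, 4 members were higher and 6 lower. The covariate itself differs between the groups and takes up 1 of the 4 residual degrees of freedom. Several log2 fold changes above 0 became smaller or turned: Cyp2e1 went from 2.07 to 0.22, Cyp2d9 from 2.12 to 0.65, Cyp7a1 from 2.50 to 0.55 and Cyp3a11 from 1.45 to -0.68. Of the other members called higher, Cyp2d40 went from 2.03 to 1.64, Cyp2c68 from 1.97 to 1.27, Cyp2d13 from 2.12 to 0.71 and Cyp3a13 from 1.42 to 0.50. For Cyp1b1 (-2.86), Cyp2s1 (-2.33) and Cyp1a1 (2.65) they were larger in size than in the comparison without the covariate, and for Cyp26a1 the value was 1.15.

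With libraries scaled so that the summed hepatocyte counts were equal, the median of all genes moved to -0.75. Under that scaling edgeR called no member higher (0.511% of all genes were). It called 4 lower (5.61% of all genes), namely Cyp1b1, Cyp2b13, Cyp2d22 and Cyp2s1. Cyp2b13 rests on low and uneven counts, 16, 0 and 58 in WT and 0, 27 and 1 in RBPjcKO, and its groups overlapped. At an unadjusted p under 0.05, 3 members were higher and 12 lower. The median of the members was -0.27, which lies above the median of all genes. Cyp2e1 stood at 1.21, Cyp2d9 at 1.09, Cyp2c68 at 1.22 and Cyp26a1 at 0.64 on this log2 scale. No member with a higher RBPjcKO mean was called under either adjustment.

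**Figure D5:**
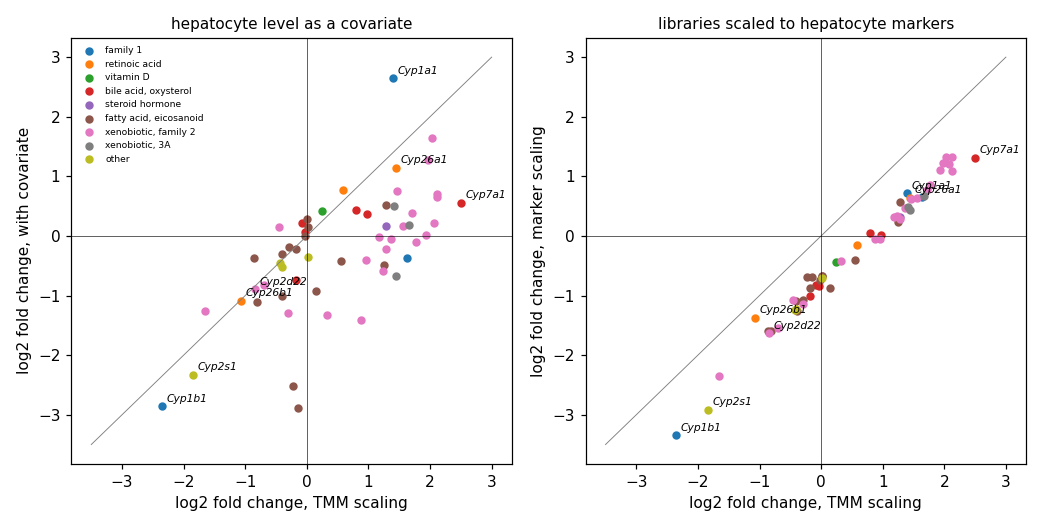
log2 fold change of RBPjcKO over WT for each tested P450 gene under TMM scaling (x axis) against the value with the hepatocyte marker level as a covariate (left) or with libraries scaled to the hepatocyte markers (right); colours are roles and the diagonal marks equality. In the left panel Cyp7a1 lies at 0.55, far under its 2.50 on the x axis, while Cyp1b1 (-2.86) and Cyp1a1 (2.65) are farther from 0 than under TMM scaling.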

How the data were processed

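RNA of LSECs from 3 WT and 3 RBPjcKO libraries was extracted with Trizol and sequenced as paired reads on an Illumina HiSeq, per the labels' protocols. Reads were aligned with TopHat2 2.0.13 to mm10 (GRCm38), per the submitters' processing notes; the counting tool, annotation and strand option were not given in the sources used here. The deposited table gives, per the file headers, the authors' unnormalised read count of every gene in each library. RPKM values, also deposited by the authors, divide each count by gene length and by the column total. Of 56825 entries, 33353 FANTOM3 clones were left out, which leaves 23472 named genes. The 96 members start where RefSeq on GRCm38 starts them in 50 cases and within 1000 bases in 91. An entry for Snora19 spans much of the Cyp2c region on chromosome 19. It also spans Cyp17a1, on the same strand, and Cyp26a1 and Cyp26c1, on the other strand. Reads of all these genes could be divided wrongly.

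Named genes that passed filterByExpr (a minimum count of 10 and a minimum total of 15), 14869 in all, were compared after TMM scaling by the quasi-likelihood test in edgeR 4.0.16 (R 4.3.3). P-values were adjusted by Benjamini-Hochberg and called under 0.05. SEs were derived by dividing the log2 fold change by the root of the F statistic. The procedure was tested on simulated counts. RPKM served to order genes by level. Alternatives were DESeq2 1.42.0, other filters and scalings, clones included, limma 3.58.1 on log2(RPKM + 1) and log2(RPKM + 0.1), the hepatocyte covariate and scaling, stricter thresholds and leaving out each library. Python 3.11.15 made tables and figures.

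The members, gene lists, tests and alternatives were chosen with earlier results of these data known. Genes were named by rule: Rbpj, called members with at least 1 CPM in a group, the 15 members of highest RPKM, and from each list up to 3 called genes by size of change with at least 1 CPM in a group, or, failing that, its 2 most abundant. Other named members, the P450 sets, ratios and motifs, and Vdr, were chosen after their values were seen. Fdx2, Cyb5a, Adgre1 and Ly6g are not among the symbols used; Fdx1l, Cyb5 and Emr1 stand for the first 3. A few genes of these lists are not reported here. Promoter sequences are those of RefSeq on GRCm38, found for 73 of the 96 members.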

Additional observations from a re-analysis of the deposited data

How the results depend on the processing

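No paired analysis was possible because the replicate numbers follow only the order of the samples. Over all genes, 1338 were called higher and 1151 lower. These counts became 110 and 96 with the hepatocyte covariate, 389 and 216 at an adjusted p under 0.01, and 465 and 430 for log2 fold changes of 1 or more in size; hepatocyte scaling gave 76 higher. Leaving out 1 library gave 467 to 1069 higher and 329 to 824 lower, both lowest without WT replicate 2. For P450 members, called 6 higher and 4 lower, DESeq2 gave 19 and 7, no filter 11 higher, the covariate 0 and 0, hepatocyte scaling 0 higher, an adjusted p under 0.01 gave 0 and 1, the log2 minimum of 1 gave 2 lower, and leaving out 1 library gave 2 to 12 higher and 1 to 4 lower. The mean summed level ran from 2259 to 3490 CPM in WT and from 2166 to 2466 CPM in RBPjcKO when a library was left out. The cause of these shifts was not tested.

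Of 1019 alternative values for 68 named genes, 781 kept their direction and side of the threshold, 194 lost a call, 19 gained one and 25 turned direction. With the hepatocyte covariate the log2 fold change turned for Cyp3a11 (-0.68), Cyp2d10 (-0.051), Cyp2d26 (-0.016), Pck1 (-0.56), Ass1 (-0.70), Mup20 (-2.36), Ephx2 (-0.76), Fmo1 (-0.017) and Sult1a1 (0.11). Hepatocyte scaling changes each library by its own factor, so genes moved by differing amounts. It took the median of all genes to -0.75, so small values above 0 tend to turn by construction. The 10 values that turned stay above that median, namely those of Pck1 (-0.092), Ass1 (-0.35), Ddx3y (-0.56), Cyb5r3 (-0.63), Hmox1 (-0.61), Ephx2 (-0.34), Nr5a2 (-0.54), Rara (-0.26), Hsd3b7 (-0.41) and Fmo1 (-0.60). Without a library the log2 fold change turned for Cyp4f16 (0.0091 without WT replicate 1, 0.0029 and 0.0017 without RBPjcKO replicates 2 and 3, in a range of -0.083 to 0.0091), for Ass1 and Mup20 without RBPjcKO replicate 3 (-0.021 and -0.60, in ranges up to 0.87 and 4.27), and for Hmox1 without RBPjcKO replicate 1 (-0.065, in a range up to 0.27). Of these, only Rara and Hsd3b7 were called.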
